A study of Mus musculus with 3 samples.

Results

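The polo-like kinases are serine/threonine kinases that carry, beside the kinase domain, polo boxes through which they dock onto partner proteins. Plk1 drives entry into mitosis, spindle assembly, chromosome segregation and cytokinesis, and is low in tissues whose cells do not divide. Plk2 and Plk3 are stress- and serum-responsive kinases first found as immediate early genes, and Plk4 starts the duplication of centrioles. The wall of an adult aorta is built mainly of contractile smooth muscle cells, few of which divide, and Plk1 has also been linked to contraction of these cells.

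Transcripts of these 4 kinases were followed on 3 two-colour oligonucleotide arrays of mouse aorta. They were taken as every probe spot, control spots left out, whose gene name in the files, or the current symbol of its accession, was Plk1, Plk2, Plk3 or Plk4. That gave 6 probes of 41174 on the array and 4 genes of 27751. A probe was kept where Cy5 or Cy3 stood well above its background on 2 or more arrays, which held for 5 of the 6, among 32497 kept probes, and the 4 genes are 4 of the 22053 features tested. Plk5, a further family member, had 1 probe under an older name and is given where it bears on the comparison.

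Each array carried total RNA of 1 aorta labelled Plk1(+/-) in Cy5 (samples 1, 2 and 3, named as biological replicates). The Cy3 channel of every array carried RNA of the same pool of 3 wild-type aortas. All animals were of strain 129/CD1 and 3 to 5 months old, and the sources used here name no other allele or agent. The dyes were never exchanged, so dye and genotype cannot be told apart, and the pool counts as 1 control sample whose own spread is left out of every test. The comparison asks which transcripts differ in aortas labelled as heterozygous for Plk1. A log2 ratio of 1 array below is the Cy5 signal of the Plk1(+/-) aorta over the Cy3 signal of the pool, after background correction and loess normalisation within the array.

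The part of the Plk1 allele that was interrupted is not given in the sources used here, so it is not known whether the Plk1 probe lies inside it. The probe's level is therefore a limited check of the label, and it is given first. In whole tissue, fewer cells of a type and less RNA per cell cannot be told apart.

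Probes of Plk1, Plk3 and Plk4 are shown because they decide which transcript each value counts, and because their sequences differ in kind. All are 60 bases long and are given 5′ to 3′ as in the scanner files, with positions in build mm7. Plk1, Plk3 and the probe designed on a Plk4 cDNA clone are shown over 30 bases, and the Plk4 probes for transcript variants sak-a and sak-b in full. Capitals mark ATTTA, the core of the AU-rich elements found in many short-lived transcripts.
Plk1, bases 1 to 30, chr7:118093971-118094030, plus strand: cccctttgaaggggttgctgtgtgtaagtt
Plk3, bases 31 to 60, chr4:116505151-116505210, minus strand: cacttttATTTAttaacagacATTTATTTA
Plk4 clone, bases 1 to 30, chr3:40574749-40574808, plus strand: cttctttataaggtatataataatgttata
Plk4 sak-a, bases 1 to 60, chr3:40578627-40578766, plus strand: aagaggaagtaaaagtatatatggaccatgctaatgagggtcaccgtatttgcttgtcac
Plk4 sak-b, bases 1 to 60, chr3:40571784-40571843, plus strand: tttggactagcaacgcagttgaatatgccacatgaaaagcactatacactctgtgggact

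The Plk3 probe held ATTTA 4 times (3 of them in the stretch shown, overlapping matches included) on the printed strand. Of the 41174 probes of the same length on the array, 9.16% held ATTTA at least 1 time on the strand printed in the files and 9.26% on the other strand. It occurred 4 or more times in 4 probes, or 0.00971%. The clone probe held it 2 times on the other strand only, and the probes of Plk1, sak-a and sak-b held it on neither strand. A match describes these letters and is not evidence of a working element. The clone probe was AT-rich, with a GC content of 16.7%, against 45.0% for Plk1, 43.3% for sak-b, 40.0% for sak-a and 35.0% for Plk2 and Plk3. The median over the array was 40%. The sak-a probe spans 140 bases of the genome, 80 more than its length, so its sequence crosses a gap there. Positions relative to exons and UTRs are not given here. No pair of the 6 probes shared a run longer than 12 bases on either strand over 15 pairs.

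The arrays held 43379 probe spots each. Between 77.0% and 80.8% of them were well above background in Cy5 (the Plk1(+/-) aortas) and between 66.0% and 69.0% in Cy3 (the pool). Saturated spots numbered 574 to 627 in Cy5 and 66 to 104 in Cy3, and no polo-like kinase spot was among them. Spike-in controls read their known log ratios with slopes of 0.793 to 0.823, so true ratios are read somewhat too small. Of 22053 features, 204 passed an adjusted p of 0.05 (limma, Benjamini-Hochberg), or 0.925%, and 172 of these had a saturated spot. Smooth muscle markers, which define the tissue, were bright: 6 of 6 were measured and 3 of these 6 had a saturated spot. The 3 unsaturated ones had medians of -0.25, -1.68 and -1.05 in samples 1 to 3. All 3 were below 0 on every array, as were 17.9% of all unsaturated features. All 3 were also lower at an unadjusted p under 0.05 (limma), as were 8.48% of those features. The part of this difference in the kinase ratios was not tested.

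Plk1, the kinase whose allele was interrupted, had no lower mean in the aortas labelled Plk1(+/-) than in the pool. Its Cy5 signals were 479.6, 490.9 and 693.5 scanner units in samples 1, 2 and 3, against Cy3 signals of 232.3, 235.7 and 224.3 units for the pool on the same arrays. Every one of these spots was well above its background. After normalisation the log2 ratios were -0.06, -0.08 and 0.42. As normalised here, samples 1 and 2 lay next to the pool and sample 3 above it. The mean was 0.10 ± 0.28 (SD, n = 3 arrays), with an adjusted p of 0.706 in limma. Feature Extraction's own processed log2 ratios were -0.20, -0.15 and 0.42, which put samples 1 and 2 further below the pool.

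The 95% interval of the Plk1 mean ran from -0.25 to 0.44, or from 0.84- to 1.36-fold. A log2 ratio of -1, a transcript at the level of a single copy out of a pair, lies below that interval. The interval covers the spread between the 3 arrays and not that of the pool. The compression of the spike-in ratios was read on Feature Extraction's own ratios. The offset of 50 added in background correction also compresses the ratios here, by an amount not measured. A halved transcript would therefore read somewhere above -1. The aortas are therefore called by their label, Plk1(+/-), throughout.

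**Figure D1:**
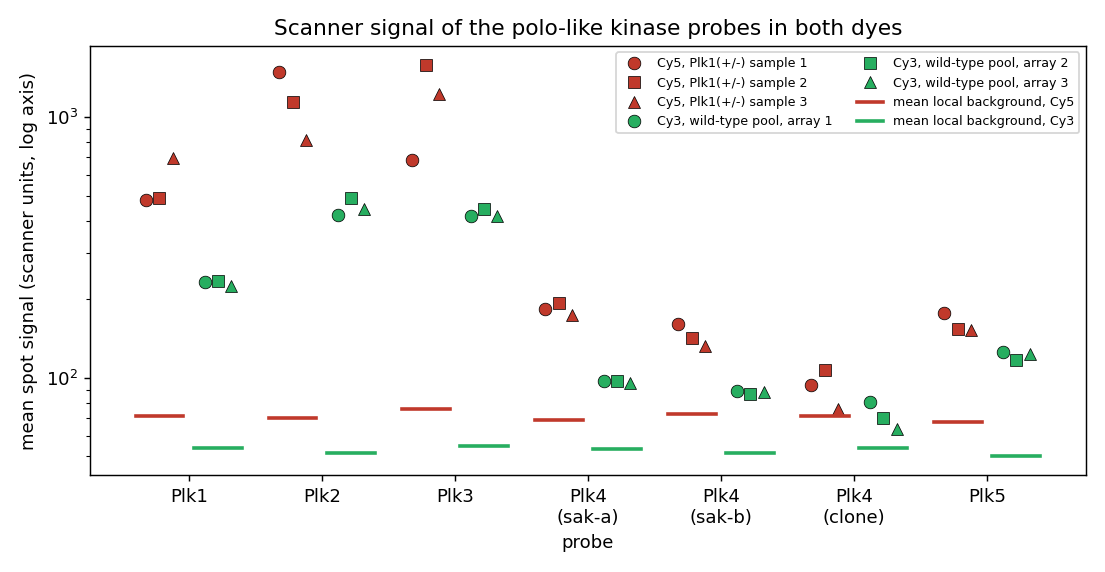
Mean spot signals of the polo-like kinase probes (scanner units, log axis) in Cy5, the 3 aortas labelled Plk1(+/-) (red, left), and in Cy3, the wild-type pool on the same 3 arrays (green, right), with the mean local background of each dye as a line. Red points of Plk1, Plk2 and Plk3 spread more widely than the green ones, and the Plk4 clone probe sits near background in both dyes.

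Plk2, a stress-responsive kinase also known from centriole and synapse biology, was high in one Plk1(+/-) aorta and low in another. Its Cy5 signals were 1491, 1139 and 818.8 units in samples 1, 2 and 3, against 420.3, 487.5 and 442.1 units for the pool. The log2 ratios were 0.59, -0.01 and -0.42. Sample 1 lay above the pool, sample 2 level with it and sample 3 below, so no direction was shared. The mean was 0.05 ± 0.51 (SD, n = 3; 95% interval -0.52 to 0.63; adjusted p = 0.904, limma).

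Plk3, a kinase of the DNA damage and stress responses, had a different order of samples. Its Cy5 signals were 681.2, 1576 and 1229 units in samples 1, 2 and 3, against 416.7, 444.8 and 417.6 units for the pool. The log2 ratios were -0.49, 0.59 and 0.23. Sample 1, the highest for Plk2, was the lowest for Plk3, and sample 2 was the highest. The mean was 0.11 ± 0.55 (SD, n = 3; 95% interval -0.50 to 0.72; adjusted p = 0.805, limma).

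Plk4, the centriole kinase, was read by the sak-a probe, the brightest of its kept probes. Its Cy5 signals were 183.7, 194.5 and 173.7 units in samples 1, 2 and 3, against 97.32, 97.3 and 95.69 units for the pool. The log2 ratios were 0.20, 0.18 and 0.19, above 0 on every array. The mean was 0.19 ± 0.01 (SD, n = 3; 95% interval 0.02 to 0.36, or 1.01- to 1.28-fold). It had an unadjusted p of 0.0383 and an adjusted p of 0.243 (limma), so it did not pass the threshold, and with median centring in place of loess its mean was -0.06. Among features without a saturated spot, 9.33% were higher at an unadjusted p under 0.05 and 8.48% lower, and 26.8% were above 0 on all 3 arrays. With 4 kinases, 1 past either rule is too few to read against these shares.

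The other Plk4 probes were at or below the detection limit in the pool. The sak-b probe was well above background in Cy5 on 3 arrays and in Cy3 on 0, with log2 ratios of 0.23, -0.06 and -0.07 and a mean of 0.03 ± 0.17 (SD, n = 3; adjusted p = 0.858, limma over the kept probes). The pool's signal is only a bound there, and sample 1 lay above it and samples 2 and 3 below, so the probe gives no fold and no direction. The clone probe was below that limit in both dyes on all arrays and gives no fold. Its Cy5 signals of 93.64, 107.1 and 76.1 units stood against Cy3 signals of 80.79, 70.44 and 63.89 units.

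**Figure D2:**
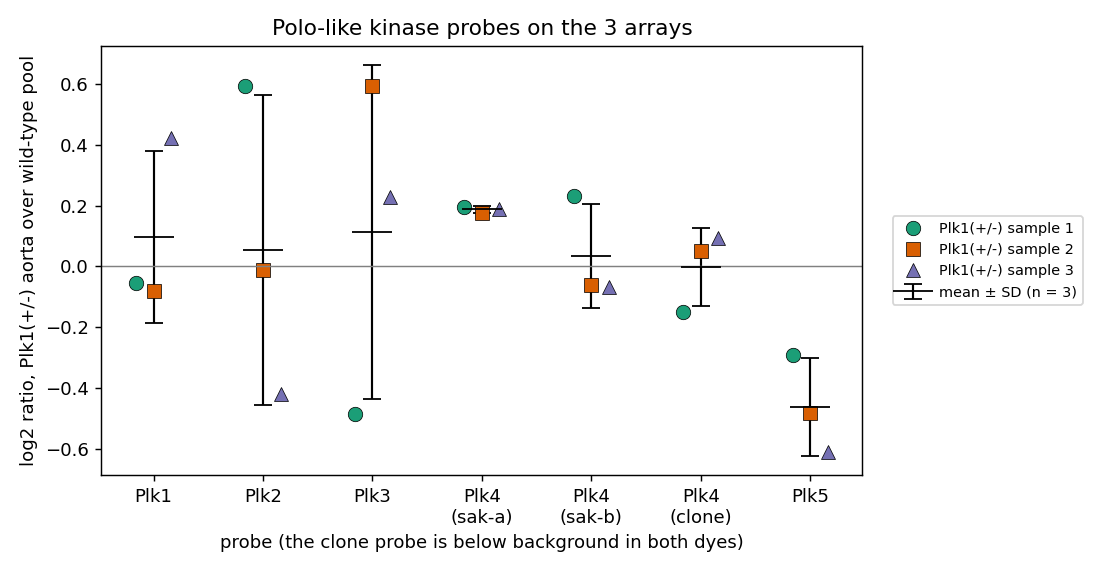
Log2 ratio, aorta labelled Plk1(+/-) over the wild-type pool, of each polo-like kinase probe on the 3 arrays (1 symbol and colour per sample), with mean ± SD as bars. Samples lie at different places in Plk1, Plk2 and Plk3 while the 3 values of Plk4 sak-a, between 0.18 and 0.20, nearly coincide; with median centring the Plk4 mean turns to -0.06.

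The kinases differed in how far their samples lay apart. Plk3 ranged 2.11-fold and Plk2 2.02-fold between its highest and lowest array, Plk1 1.42-fold and Plk4 sak-a 1.01-fold. Feature Extraction gives each spot an error of its log ratio, which on the log2 scale averaged 0.21 for Plk2, 0.211 for Plk1 and Plk3 and 0.323 for sak-a. The SD between arrays was 2.6 times that error for Plk3, 2.43 times for Plk2 and 1.34 times for Plk1. That error is technical, leaves out differences between animals and belongs to Feature Extraction's own processed ratios. The SD is that of the ratios normalised here, with an offset of 50, so these multiples mix scales. The SD exceeded that error for 26.9% of 21524 features without a saturated spot, with a median of 0.58 times. Among these features Plk3 stood at percentile 94.5, Plk2 at 93.7 and Plk1 at 82.6. For sak-a the SD was 0.0319 times the error (percentile 0.404). Its 3 ratios nearly coincide as normalised here, but the processed ratios to which the error belongs were 0.26, 0.32 and 0.11.

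The same pool was measured on every array, so its Cy3 signal shows how far 1 RNA varied between arrays. After background subtraction, the coefficient of variation over the 3 arrays for Plk3 was 41.6% in Cy5, the individual aortas, and 4.25% in Cy3, the pool. For Plk2 it was 31.1% in Cy5 and 8.67% in Cy3, and for Plk1 24.8% in Cy5 and 3.73% in Cy3. For Plk4 sak-a it was 8.03% in Cy5 and 6.49% in Cy3. Plk1, Plk2 and Plk3 thus varied more between individual aortas than between repeats of the pool, and Plk4 differed little between both. Over 27319 spots the median was 15% in Cy5 and 8.7% in Cy3, and Cy5 varied more than Cy3 for 71.2% of them, so the direction of this difference is common. By size, the Cy5 variation of Plk3 stood at percentile 92.2 of all spots, Plk2 at 85.7, Plk1 at 77.4 and Plk4 at 21.1. These signals are not normalised between arrays, and which of the aortas' own differences, dissection and dye contributed was not tested.

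Against 2000 features of like brightness, the SD of the log2 ratios was at percentile 89.4 for Plk3, 87.8 for Plk2, 72.4 for Plk1 and 0.2 for Plk4. The median SD of such features was 0.165, 0.165, 0.163 and 0.131 for the same 4 genes. The log ratio that Feature Extraction computed from its own processed signals kept the order of samples for Plk2 (0.63, -0.01 and -0.54) and for Plk3 (-0.64, 0.65 and 0.20). For Plk1 it gave -0.20, -0.15 and 0.42, so sample 3 stayed highest while samples 1 and 2 changed places. For sak-a it gave 0.26, 0.32 and 0.11, so the near equality of its 3 values did not hold with that processing, although all 3 were above 0.

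Plk5, a family member known mainly from the brain and without kinase activity, had Cy5 signals of 177.3, 153.9 and 152.2 units in samples 1, 2 and 3, against 125.8, 117.4 and 124 units for the pool. Its log2 ratios were -0.29, -0.48 and -0.61, below 0 in each aorta. The mean was -0.46 ± 0.16 (SD, n = 3; unadjusted p = 0.00563; adjusted p = 0.156, limma). Features below 0 on all arrays were 17.9% of those without a saturated spot. Both the Agilent processed ratio and the authors' values gave a mean of -0.78. Plk5 passed the threshold only with median centring, where its mean was -0.65 and its adjusted p 0.0224; over all alternatives adjusted p ranged between 0.0224 and 0.554.

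**Figure D3:**
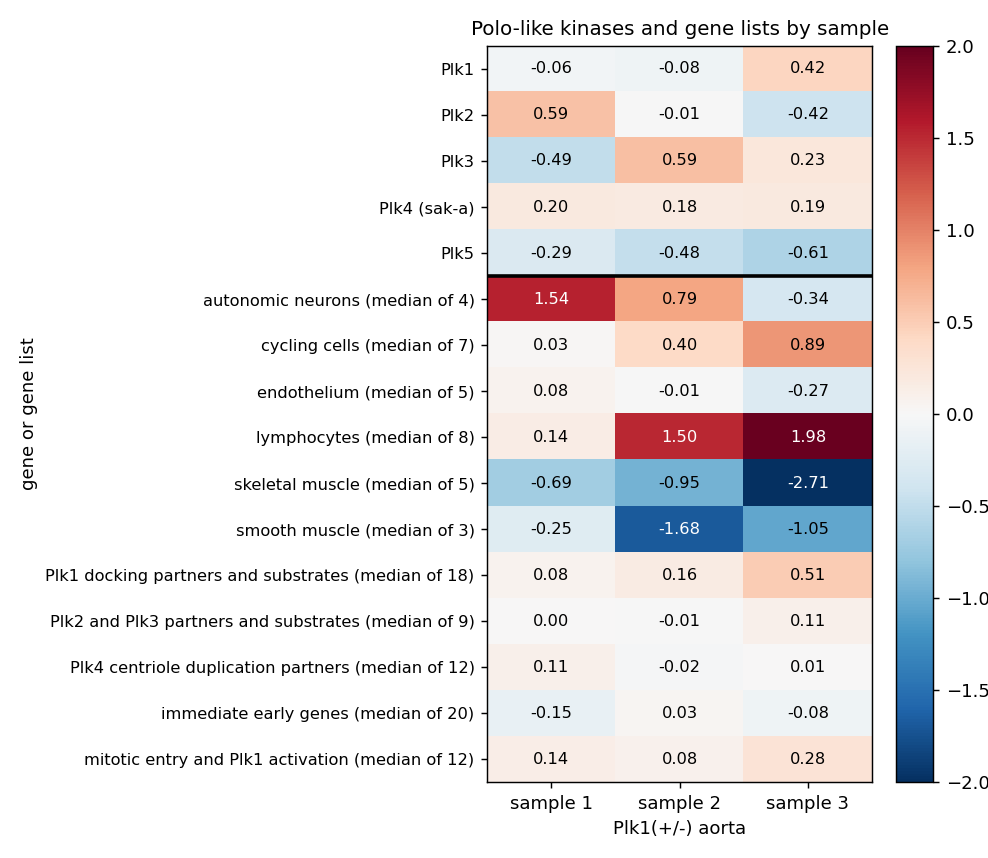
Log2 ratios over the wild-type pool of the polo-like kinases (top) and medians of the gene lists (below the line, number of genes without a saturated spot in brackets) in each aorta labelled Plk1(+/-). Plk1 is highest in sample 3, as are the medians of cycling cells (0.89), lymphocytes (1.98) and Plk1 docking partners (0.51). So are those of mitotic entry (0.28) and of Plk2 and Plk3 partners (0.11). Plk2 is highest in sample 1, as are the medians of autonomic neurons (1.54), endothelium (0.08), smooth muscle (-0.25), skeletal muscle (-0.69) and Plk4 partners (0.11).

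Markers of cells that an aorta preparation can hold differed between the 3 samples and are given beside the kinases. Cycling cell markers, of which 7 of 8 were measured, had medians of 0.03, 0.40 and 0.89 in samples 1, 2 and 3. Of these, 4 were above 0 on every array and 1, Ube2c, was below 0 on every array (-0.38, -0.52 and -0.10). All 7 were highest in sample 3, where Plk1 was highest too, as were 39.8% of all features without a saturated spot. From sample 1 to sample 2 the marker median rose while Plk1 did not (-0.06 and -0.08). Lymphocyte markers (8 of 8 measured) had medians of 0.14, 1.5 and 1.98, and skeletal muscle markers (6 of 6 measured, 1 saturated) medians of -0.69, -0.95 and -2.71. Lymphocytes contain dividing cells that express Plk1, and the part of either cell type in the Plk1 ratios was not tested.

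Autonomic neuron markers, of which 4 of 5 were measured, had medians of 1.54, 0.79 and -0.34. Th and Dbh, singled out after their values were seen, are enzymes of noradrenaline synthesis and had log2 ratios of 1.39, 0.73 and -0.42 (Th) and 1.31, 0.49 and -0.19 (Dbh). All 4 markers followed the order of Plk2, sample 1 above sample 2 above sample 3. So did 4 of 5 endothelial markers, 3 of 5 unsaturated skeletal muscle markers, 1 of 3 unsaturated smooth muscle markers and 21% of all unsaturated features. None of the 4 neuron markers passed an unadjusted p of 0.05. Among the endothelial genes in that order, second probes of Kdr, Pecam1 and Tek departed from it, while that of Vwf kept it. Plk2 is known to be expressed in neurons, and the part of neurons, endothelium, skeletal muscle or smooth muscle in the Plk2 ratios was not tested. The endothelial medians were 0.08, -0.01 and -0.27. Of the 4 brown fat markers 3 had saturated spots, which leave neither a fold nor a direction, and Elovl3, the other one, had -0.18, 1.009 and -0.47.

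The genes around the kinases were described through 5 lists with 73 genes, 71 of them measured and none with a saturated spot. At an unadjusted p under 0.05, 12 were higher and 6 lower in the aortas labelled Plk1(+/-). Over all unsaturated features 9.33% were higher and 8.48% lower by the same rule, and the lists were not tested as sets. A single gene of the 71, Ccn1, passed the adjusted threshold, as did 0.925% of all features tested (204, of which 32 had no saturated spot).

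Upstream of Plk1 stand the genes of mitotic entry: Aurka, Bora and Tpx2, which lead to the phosphorylation of its activation loop, cyclin B and Cdk1, the Cdc25 phosphatases that activate Cdk1, and the Wee1 and Pkmyt1 kinases that hold it back. Of 12 measured, 0 passed the adjusted threshold (limma), 2 were higher and 1 lower at an unadjusted p under 0.05. The median of their mean ratios was 0.19, against 0.04 over all unsaturated features, and it was 0.15 below the median of all features with median centring. Pkmyt1, an inhibitor of Cdk1, had log2 ratios of 0.44, 0.53 and 0.53 (adjusted p = 0.0888). Cdc25b, an activator of Cdk1, had -0.61, -0.86 and -0.46 (adjusted p = 0.12), but its other probes averaged -0.15 and 0.07, so its probes disagree. Tpx2, which brings Aurora A to the spindle, had 0.22, 0.20 and 0.65, and Cdk1 itself had 0.18, 0.17 and 0.67. Both were highest in sample 3, as Plk1 was.

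Downstream stand the proteins that Plk1 docks on or phosphorylates, in the kinetochore, the central spindle and the anaphase-promoting complex pathway. Of 19 such genes 18 were measured, 0 passed the adjusted threshold (limma), and 6 were higher and 0 lower at an unadjusted p under 0.05. On all 3 arrays 10 of the 18 were above 0, as were 26.8% of all unsaturated features. The list's medians in samples 1, 2 and 3 were 0.08, 0.16 and 0.51. In sample 3, the sample with the highest Plk1 and cycling cell markers, 15 of 18 genes were highest, against 39.8% of all unsaturated features. This was not particular to the list: 7 of 9 Plk2 and Plk3 partners and 8 of 12 mitotic entry genes were highest there too. The counts were 6 of 12 for Plk4 partners and 6 of 20 for immediate early genes. For the Plk1 docking partners the median of the means was 0.25 as reported and lay 0.06 above that of all features with median centring. Incenp, a scaffold of the chromosomal passenger complex, had 0.55, 0.19 and 0.63 (adjusted p = 0.19). Sgo1, which protects centromeric cohesion, had 0.36, 0.22 and 0.66 (adjusted p = 0.201). Fzr1, an activator of the anaphase-promoting complex, had 0.32, 0.24 and 0.20, while its second probe averaged -0.03. Cep55, needed for the final cut of cytokinesis, had 0.30, 0.15 and 0.31, with 0.38 for its second probe.

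**Figure D4:**
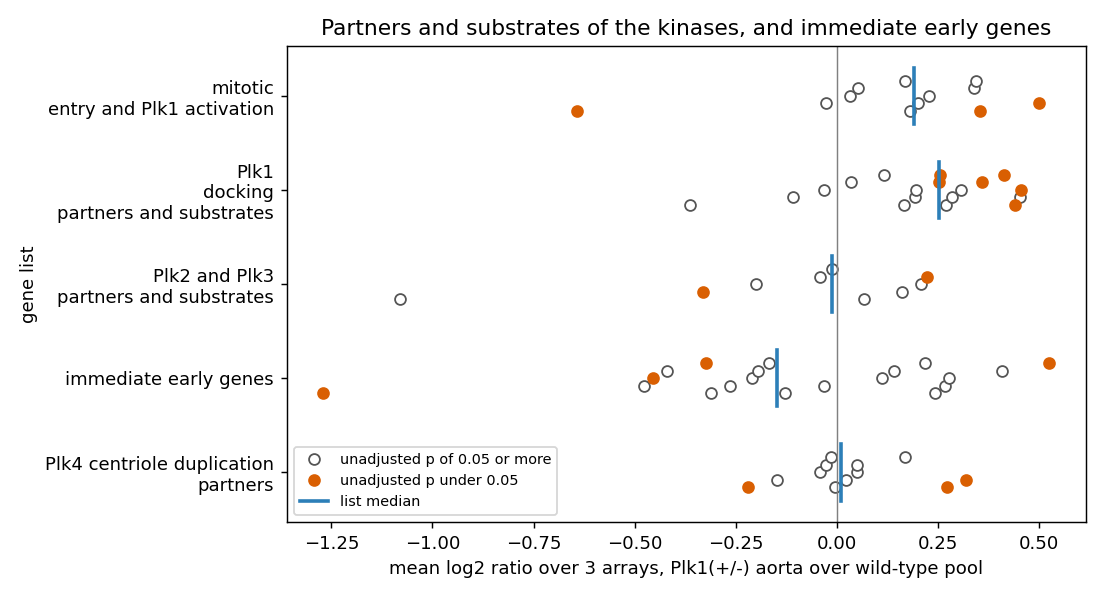
Mean log2 ratio over 3 arrays, aortas labelled Plk1(+/-) over the wild-type pool, of each measured gene in the 5 lists (1 point per gene, orange where the unadjusted p was under 0.05) with the list median as a bar. Medians run between -0.15 for immediate early genes and 0.25 for Plk1 docking partners. With median centring the immediate early median is 0.20 and that of Plk2 and Plk3 partners 0.46. Relative to the median of all unsaturated features under that setting these are -0.03 and 0.23.

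For Plk2 and Plk3, 9 partners and substrates were measured of 9. At an unadjusted p under 0.05, 1 was higher and 1 lower, 0 passed the adjusted threshold (limma), and the median was -0.01. With median centring it was 0.46, which lay 0.23 above the median of all unsaturated features. Hif1a, the hypoxia factor, which Plk3 phosphorylates, had log2 ratios of -0.59, -0.23 and -0.17. With median centring its mean was 0.08, still below the median of all features under that setting (0.23). Vrk1, a kinase downstream of Plk3, had 0.21, 0.11 and 0.35, with 0.18 for its second probe. Trp53, which Plk3 phosphorylates, had a mean of 0.21, while its second probe averaged -0.03. Tsc1, a Plk2 partner, had a mean of 0.16, and its other probes averaged 0.14, 0.09 and 0.07.

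For Plk4, 12 of 13 centriole duplication partners were measured. At an unadjusted p under 0.05, 2 were higher and 1 lower, 0 passed the adjusted threshold (limma), and the median was 0.01 as reported and -0.08 with the Agilent processed ratio. Cep192, a scaffold that recruits Plk4 to the centriole, had log2 ratios of 0.17, 0.30 and 0.49 (adjusted p = 0.212). Cenpj, which sets the length of the new centriole, had 0.34, 0.12 and 0.35 (adjusted p = 0.224). Pcnt, a scaffold of the material around the centrioles, had -0.31, -0.28 and -0.08, with -0.22 for both of its probes. With median centring its mean was 0.19, still below the median of all features under that setting (0.23). Cep135, a centriole wall protein, had a mean of 0.17 with -0.03 for its second probe. Stil and Sass6, which form the first cartwheel and were named here after their values were seen, had means of 0.05 and 0.02. The second probe of Sass6 averaged 0.18.

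Plk2 and Plk3 belong to the immediate early genes, so 20 further ones were counted, all of them measured. At the adjusted threshold, which 0.925% of all features passed, 1 was lower, and at an unadjusted p under 0.05, 1 was higher and 3 lower. The median was -0.15. With median centring it was 0.20, which lay 0.03 below the median of all unsaturated features (-0.03 relative to it). Ccn1, a secreted matrix protein, was lower in the aortas labelled Plk1(+/-), with log2 ratios of -1.32, -1.003 and -1.49 and a mean of -1.27 ± 0.25 (SD, n = 3; adjusted p = 0.0366, limma). It was negative in 14 of 14 alternatives and passed the threshold in 8 of them, with adjusted p between 0.0224 and 0.223. The call was lost with features holding a saturated spot left out of the fit (adjusted p = 0.223), with the Agilent processed ratio (0.0798), with the authors' values (0.0652), and without sample 1 (0.0805), sample 2 (0.165) or sample 3 (0.126). Junb, a subunit of the AP-1 factor, had 0.63, 0.44 and 0.50 (adjusted p = 0.0963), with 0.24 for its second probe. Klf6 had -0.51, -0.27 and -0.18, with -0.52 for its second probe. With median centring its mean was 0.15, still below the median of all features under that setting (0.23). Egr1, a serum-responsive zinc finger factor, had -0.06, -0.53 and -0.78.

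The order of Plk3, sample 2 above sample 3 above sample 1, was shared by 4 of the 20 immediate early genes, Atf3, Dusp1, Egr3 and Nr4a1, and by 9.46% of all unsaturated features. Dusp1, a phosphatase of MAP kinases, had log2 ratios of -0.43, 1.09 and 0.17. Nr4a1, a nuclear receptor, had -0.82, 0.58 and -0.26. These genes were singled out after their values were seen. The order of Plk2, sample 1 highest and sample 3 lowest, was shared by 3 of the 20 and by 21% of all unsaturated features.

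Genes whose 3 log2 ratios lay nearest to those of each kinase were sought by Euclidean distance over the 3 arrays, among 15826 named genes without a saturated spot. For Plk1, 28 genes lay within 0.1, among them Psme1 (distance 0.0258) and Slitrk2 (0.0284). For Plk2, 7 lay within 0.1, among them Ndn (0.062) and Mfap3l (0.0635). For Plk3, 2 did, Pank3 (0.0667) and Upk3b (0.0804), followed by Adcy3 (0.108). For Plk4, 291 did, led by Arl2bp (0.0122), Dhtkd1 (0.0136) and Exosc2 (0.0155). The pattern of Plk4, small and level, was thus the commonest and that of Plk3 the rarest of these 4. With 3 values per gene such likeness is a description only.

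**Figure D5:**
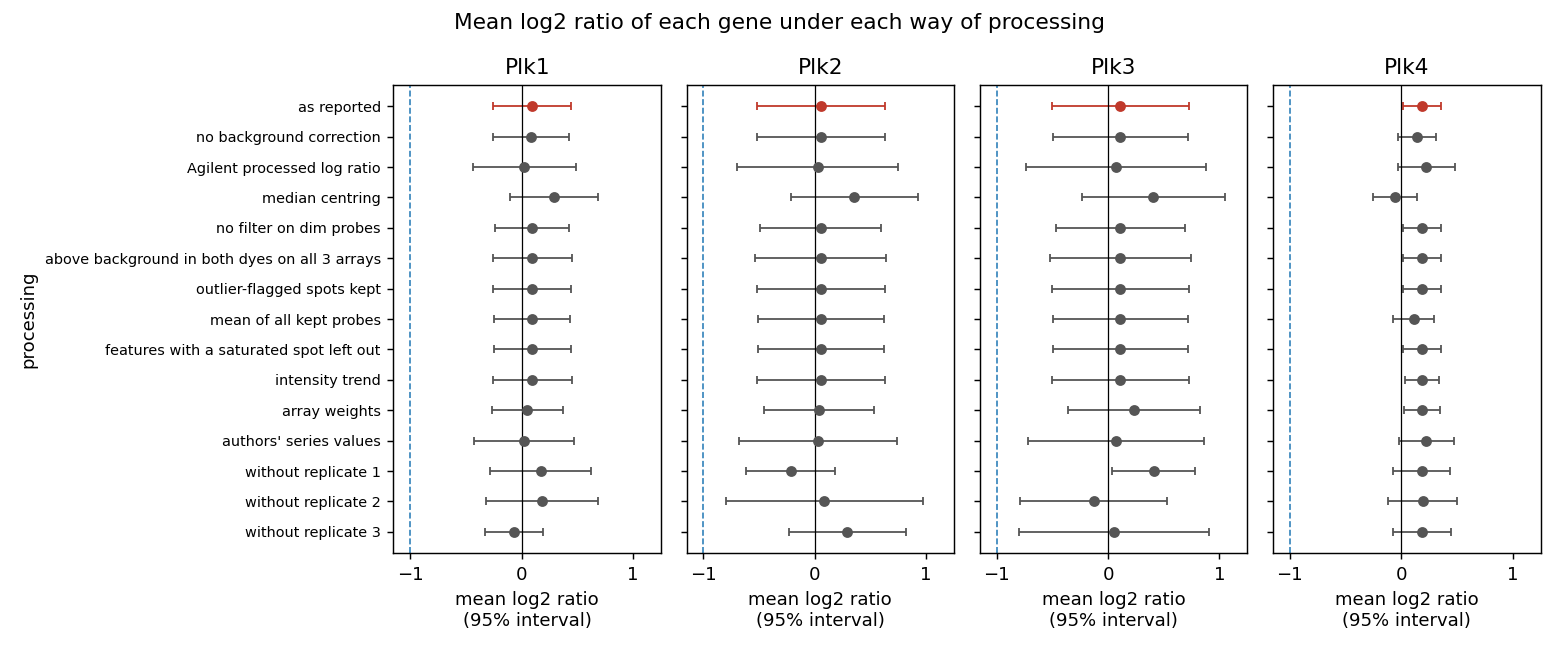
Mean log2 ratio of each kinase (point) with its 95% interval (bar) as reported (red) and under 14 other ways of processing (grey); the dashed line marks -1. Every interval lies above -1, and each of Plk1, Plk2 and Plk3 has a mean below 0 after leaving out 1 sample, while Plk4 turns to -0.06 with median centring.

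Over 14 alternatives for each kinase, 0 fits passed an adjusted p of 0.05 (limma). At an unadjusted p under 0.05, 6 of the 14 did so for Plk4, 1 for Plk3 and 0 for Plk1 and Plk2. Leaving out single samples moved the means of Plk1, Plk2 and Plk3 across 0. Plk1 was -0.07 without sample 3, Plk2 was -0.22 without sample 1, and Plk3 was -0.13 without sample 2. In the alternatives that kept all 3 samples, the lowest bound of any 95% interval was -0.44 for Plk1, -0.70 for Plk2, -0.74 for Plk3 and -0.26 for Plk4.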

How the data were processed

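Spot intensity values (mean signal and local background of both dyes) in the deposited scanner files came, per the file headers, from Feature Extraction version 9.5.3.1 and are neither subtracted nor normalised. The deposited log10 ratio is processed Cy5 over processed Cy3, per the file headers, and equalled that ratio within 0.001 for 85.2% to 87.2% of spots. The authors' series values are log2 ratios whose centring is not stated. Total RNA was extracted with Trizol and amplified from a T7 primer, per the labels' protocols. The labels' growth text describes embryonic stem cells, but the tissue label, aorta, was followed.

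In limma 3.58.1 under R 4.3.3 (the data.table package, version 1.17.8, and jsonlite 2.0.0), signals were corrected with normexp (offset 50) and loess-normalised within arrays with control spots at weight 0. Outlier spots (100 to 136 per array) were dropped and spots of a probe averaged. The brightest kept probe stood for a gene. A two-sided moderated test (lmFit, eBayes) set each log2 ratio against 0, and p-values were adjusted by Benjamini-Hochberg over 22053 features. Precision is limited by the number of arrays, 3. Names were updated through RefSeq: 22951 probes by accession, 6659 already current, 3109 by synonym, and 8455 kept. Named genes were the kinases, in each list the unsaturated members of smallest unadjusted p (at most 4), and the 3 nearest genes of each kinase, some of which are not reported here. The kinases and lists were chosen with earlier results of these data known. The fit was tested on simulated data. Figures used matplotlib 3.10.9, pandas 2.3.3 and Python 3.11.15. Background correction, normalisation, filters, probe choice, saturation, variance model, array weights, the authors' values and each replicate were varied.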

Additional observations from a re-analysis of the deposited data

How the results depend on the processing

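The log2 ratios of Plk1 ranged between -0.068 and 0.29 over 14 alternatives, Plk2 between -0.22 and 0.36, Plk3 between -0.13 and 0.41 and Plk4 between -0.06 and 0.23, each negative in 1 of 14, and none passed the adjusted threshold in limma (adjusted p at least 0.164). Leaving out 1 sample at a time gave -0.068 to 0.18 for Plk1, -0.22 to 0.29 for Plk2, -0.13 to 0.41 for Plk3 and 0.18 to 0.19 for Plk4. Median centring turned Plk4 to -0.058 (adjusted p = 0.53; range over alternatives 0.2 to 0.602). It moved the median of all features to 0.23, against 0.04 as reported; relative to that median the kinases lay at 0.06 (Plk1), 0.13 (Plk2), 0.18 (Plk3) and -0.28 (Plk4), and Plk5 at -0.88. Called features, 204 as reported, numbered 9776 with median centring (73.2% of them higher, against 3.92% as reported), 117 with the Agilent processed ratio, 0 with saturated features left out (where 2008 were higher and 1826 lower at an unadjusted p under 0.05 in the full fit), and 0 to 175 with 1 sample left out. Called genes of the 5 lists, 1 as reported, numbered 25 with median centring, 0 with the Agilent processed ratio, the authors' values or saturated features left out, and 0 to 1 with 1 sample left out. At an unadjusted p under 0.05 the lists held 18 genes, against 33 with median centring and 10 to 18 with 1 sample left out. The cause of these moves was not tested, except that fits without a sample rest on fewer arrays. No paired analysis was possible because each array holds 1 aorta against the same pool. Signal near background limits the sak-b and clone probes of Plk4.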
